A study of Mus musculus with 30 samples.

Results

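The interferon response and MHC class I genes described here are 42 mouse genes: sensors of foreign RNA, transcription factors of interferon signalling, antiviral effectors and the machinery that presents peptides on MHC class I. They were chosen by name, as the rows whose Ensembl gene carries a listed symbol. All 42 were found among the 38561 genes of the count table, and all 42 passed the filter on low counts that left 14438 genes for testing. Transcripts were counted by RNA-seq in adipose-derived stem cells, the fibroblast-like progenitors of fat tissue, taken from the inguinal fat pad of 30 male C57BL6/J mice. The cells were positive for Sca-1 and CD34, negative for CD31, CD45 and Ter119, and were grown to passage 2, with 1 library per mouse. The 6 aged obese mice had eaten a lard-based diet with 60% of its energy from fat since weaning and were killed at 52 weeks of age. The 8 aged lean mice ate control chow to the same age. The 8 young obese mice had the high-fat diet and the 8 young lean mice the control chow, and both were killed at 20 weeks. Age and time on the high-fat diet cannot be told apart in obese mice. Of 12 mice bought for the aged obese group, 8 were alive at 360 days, so that group holds survivors. The labels name no infection and no added interferon.

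Interferons are secreted proteins, and cells release those of type I when they sense foreign nucleic acid. Type I interferons bind a receptor of the IFNAR1 and IFNAR2 chains, and the kinases JAK1 and TYK2 then activate transcription factors, among them a complex that holds IRF9. This complex binds the interferon-stimulated response element in promoters and switches on antiviral genes such as Isg15, the Ifit and Oas families and Mx1. Interferon gamma acts through a receptor of its own and raises the guanylate-binding proteins and MHC class I presentation. Stromal progenitors of fat carry these receptors, and uninfected cells express many of the genes at a low basal level.

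Counts in genes ranged from 30597765 to 47970233 per library. Some libraries stood apart from their group. Young obese 1 and 2 were both above the other 6 young obese libraries for 30.1% and both below them for 27.7% of all tested genes, and aged obese 10 and 12 were both highest of their group for 26.1% and both lowest for 26.8%, so p-values that treat libraries of a group as independent may be too small. Of 10 macrophage markers, 6 stayed below 1 CPM, the count scaled by library size, in every library, among them Ptprc and Adgre1, which did not exceed 0.029 CPM. The summed level of the list was 18.9 to 32.3 CPM in aged obese, 13.5 to 40.0 in aged lean, 21.1 to 34.7 in young obese and 17.2 to 37.6 CPM in young lean libraries, most of it Csf1r. The 8 lymphocyte markers summed to at most 0.693 CPM. The 6 adipocyte markers summed to 41 to 74.2 CPM in aged obese, 21 to 139 in aged lean, 24.5 to 69.7 in young obese and 26.2 to 105 CPM in young lean libraries, most of it Fabp4, and Lep was at 0 throughout. Of the 4 adipocyte markers tested, 1 was lower with obesity in young mice (Car3, median of the 4 -2.64), beside 5.37% of all tested genes. With age in obese mice 0 passed (median 1.84), beside 1.87% of all genes higher and 1.2% lower. Young obese 1 and 2 had the highest adipocyte sums of their group, 69.7 and 64.7 CPM. Of 10 adipose stem cell markers, 2 were higher with age in obese mice (Pdgfrb and Cd44), beside 1.87% of all genes. In aged obese against young lean mice 3 were higher (Pdgfrb, Eng and Cd44), beside 5.62%. With obesity in young mice 0 passed, beside 3.46% higher and 5.37% lower. The part of these markers in the results was not tested. All 10 stem cell markers passed the filter, and Ly6a, which encodes Sca-1, lay between 176 and 1250 CPM. Cd34, the other sort marker, ranged from 0.193 to 38.0 CPM over the cultured cells. Pecam1, the gene of CD31, did not exceed 0.278 CPM.

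Promoters of these genes are shown because the response element gives the family its name, and because they set genes that moved together beside genes that passed a test. The window ran from 250 bases before to 50 bases after the transcription start, as listed by RefSeq for GRCm38.p6. A paired GAAA motif, GAAA then any 2 bases then GAAA, which is the core of the interferon-stimulated response element, and TTCNNNGAA, the core of the gamma-activated site, were searched on both strands. A promoter was listed for 34 of the 42 genes. The paired GAAA motif stood in 17 of them (50%), against 3.99% of the 27025 genes with a promoter, and TTCNNNGAA in 8 (23.5%), against 9.55%. Below, 5′ to 3′ on the strand of the gene, capitals mark each match. In Isg15 (chr4:156200769-156201068, minus strand) 3 matches of the paired GAAA motif follow each other, each overlapping the next, and in Ifitm3 (chr7:141010695-141010994, minus strand) the match of TTCNNNGAA lies between 2 matches of the paired GAAA motif and overlaps one of them. The other windows are those of Ifit1 (chr19:34640639-34640938, plus strand), Gbp2 (chr3:142620413-142620712, plus strand), B2m (chr2:122147437-122147736, plus strand) and Ifi35 (chr11:101448162-101448461, plus strand). In Ifit1 and Gbp2 the matches read as paired TTTC, the same motif on the opposite strand. Ifi35 held TTCNNNGAA and no paired GAAA motif.
Isg15: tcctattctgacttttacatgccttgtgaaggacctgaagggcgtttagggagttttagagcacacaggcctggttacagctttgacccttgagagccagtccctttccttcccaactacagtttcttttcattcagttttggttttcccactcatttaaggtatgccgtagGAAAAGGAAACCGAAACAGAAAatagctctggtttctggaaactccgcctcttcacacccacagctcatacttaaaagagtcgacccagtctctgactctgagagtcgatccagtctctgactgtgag
Ifit1: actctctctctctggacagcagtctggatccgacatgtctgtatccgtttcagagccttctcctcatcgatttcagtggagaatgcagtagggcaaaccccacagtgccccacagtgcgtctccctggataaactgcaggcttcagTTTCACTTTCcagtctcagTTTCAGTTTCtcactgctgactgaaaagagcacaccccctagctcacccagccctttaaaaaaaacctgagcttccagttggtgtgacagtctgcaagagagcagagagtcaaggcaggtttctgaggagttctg
Gbp2: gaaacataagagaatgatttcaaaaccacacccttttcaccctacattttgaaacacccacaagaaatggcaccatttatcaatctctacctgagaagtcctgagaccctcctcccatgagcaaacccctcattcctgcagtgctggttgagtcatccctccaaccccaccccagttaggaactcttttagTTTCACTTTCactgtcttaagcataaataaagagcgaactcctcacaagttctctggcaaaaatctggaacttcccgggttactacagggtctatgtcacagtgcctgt
Ifitm3: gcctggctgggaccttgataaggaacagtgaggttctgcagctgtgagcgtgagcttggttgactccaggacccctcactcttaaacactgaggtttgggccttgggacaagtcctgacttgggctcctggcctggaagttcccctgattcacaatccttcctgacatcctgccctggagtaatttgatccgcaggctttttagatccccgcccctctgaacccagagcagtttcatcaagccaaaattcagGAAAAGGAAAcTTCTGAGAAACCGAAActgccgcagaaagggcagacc
B2m: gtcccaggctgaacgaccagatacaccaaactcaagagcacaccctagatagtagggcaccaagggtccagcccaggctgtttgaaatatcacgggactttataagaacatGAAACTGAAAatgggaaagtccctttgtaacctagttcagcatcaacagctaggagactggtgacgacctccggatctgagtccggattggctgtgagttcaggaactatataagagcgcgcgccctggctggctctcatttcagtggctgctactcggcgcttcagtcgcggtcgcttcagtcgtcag
Ifi35: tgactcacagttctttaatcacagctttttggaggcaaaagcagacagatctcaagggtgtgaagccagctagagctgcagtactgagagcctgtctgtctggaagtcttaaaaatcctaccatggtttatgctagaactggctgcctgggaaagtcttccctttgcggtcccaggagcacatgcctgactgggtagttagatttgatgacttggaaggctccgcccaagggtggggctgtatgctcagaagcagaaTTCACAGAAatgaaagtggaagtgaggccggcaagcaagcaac

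Per kilobase of transcript the genes spanned a wide range of levels. Ifitm3, a membrane protein that blocks entry of viruses, had a median of 412 CPM per kb over the 30 libraries. B2m, the light chain of every MHC class I molecule, had 390 and Ifitm2 383 CPM per kb, and the ranges of these 3 genes over libraries overlapped. The heavy chains H2-K1 and H2-D1 followed with 79.2 and 59.1 CPM per kb and also overlapped in range. Tapbp, which encodes tapasin and brings empty class I molecules to the peptide transporter, had 22.3, Isg15 10.4 and Mx1, an antiviral GTPase, 0.0354 CPM per kb, the lowest of the 42. H2-K1 and H2-D1 share long stretches with other class I genes, as do the Ifitm, Ifit, Oas and Gbp genes with their neighbours, so reads of 1 gene may have been lost or shared in the counting. Parp9 and Dtx3l lie beside each other in the genome, as do Tap1 and Psmb9. The strand setting of the counting is not given in the sources used here.

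For most roles the most abundant gene is given here as mean CPM ± SD (n = 6 aged obese and 8 in each other group). Among sensors and their cofactors, Trim25, a ubiquitin ligase that activates RIG-I, averaged 36.2 ± 5.97 CPM in aged obese, 39.7 ± 5.30 in aged lean, 36.9 ± 12.1 in young obese and 39.1 ± 10.4 CPM in young lean libraries. Irf3, the factor that starts interferon transcription, averaged 33.9 ± 9.59, 37.7 ± 6.85, 33.4 ± 5.85 and 44.9 ± 14.1 CPM in the same order. Oasl2, an oligoadenylate synthetase-like protein, was at 6.73 ± 2.16 CPM in aged obese, 6.2 ± 3.10 in aged lean, 4.49 ± 3.39 in young obese and 5.07 ± 2.15 CPM in young lean libraries. Bst2, the tetherin that holds budding virus at the membrane, was at 20.6 ± 3.35, 17.3 ± 5.14, 13.4 ± 3.69 and 16.2 ± 6.88 CPM in that order. Parp9, an ADP-ribosyltransferase partner of the ubiquitin ligase Dtx3l, was nearly level, at 16.9 ± 3.01 CPM in aged obese, 15.9 ± 3.17 in aged lean, 15.3 ± 4.19 in young obese and 15.3 ± 1.71 CPM in young lean libraries. Irgm1, an immunity-related GTPase, was at 26.8 ± 10.1, 26.1 ± 6.47, 25 ± 3.04 and 25.7 ± 2.80 CPM in the same order. Irgm1 ranged from 11.9 to 37.5 CPM in aged obese libraries, the widest range of the 4 groups.

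Few reads were counted in the interferon genes themselves. Of 10 genes of type I, II and III interferons in the table, 6 had a count of 0 in all 30 libraries, which allows a level of up to 0.00274 CPM over the 1094951532 counts together (3 counts, counting error only). The other 4, Ifnb1, Ifna1, Ifne and Ifng, had 1 to 3 counts in all. The Ifna genes are near-identical copies whose reads the counting may lose, and Trex1, a DNA-degrading enzyme, was also listed at 0 in all 30 libraries, so a 0 here does not show that a gene is off.

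Several interferon-induced effectors ranged widely between mice of 1 group. Isg15, a ubiquitin-like protein that is attached to other proteins, stood at 4.26, 11.1, 20.9, 24.8, 13.3 and 17.3 CPM in aged obese 10, 12, 14, 15, 16 and 17. In aged lean libraries it ranged from 3.49 over a median of 9.13 to 22.7 CPM, in young obese from 2.32 over 3.39 to 17.9 CPM, and in young lean from 3.74 over 6.27 to 14.3 CPM. All 4 groups overlapped, and the highest library exceeded the lowest of its group 5.82-fold in aged obese, 6.50-fold in aged lean, 7.72-fold in young obese and 3.82-fold in young lean mice. Ifit1, which binds viral RNA that lacks the host cap, had 9.56 and 11.9 CPM in young obese 1 and 2, whereas the 6 others of that group had 0.689 to 1.10 CPM. The lower of that pair stood 8.69-fold above the highest of the other 6, the widest gap of the 42 genes. Ifit1 ranged from 1.31 to 7.31 CPM in aged obese libraries, from 1.01 to 12.5 in aged lean and from 1.08 to 6.04 CPM in young lean libraries.

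Young obese 1 and 2 were both above the other 6 young obese libraries for 27 of the 42 genes and both below them for 5, beside the 30.1% and 27.7% over all tested genes. Rsad2, the antiviral enzyme viperin, was 7.80-fold, Ifit3 5.52-fold and Gbp3 3.68-fold higher in the lower of the pair than in the highest of the others. The 5 genes below were Irf1, Irf3, Ifit2, Ifi35 and Tap2. Aged obese 10 and 12 were both highest of their group for 4 genes and both lowest for 9, beside the 26.1% and 26.8% over all genes. The median SD of log2 CPM of the 42 genes within a group was 0.457 in aged obese, 0.460 in aged lean, 0.406 in young obese and 0.441 in young lean libraries. Over all tested genes it was 0.383, 0.298, 0.264 and 0.292 in the same order.

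**Figure D1:**
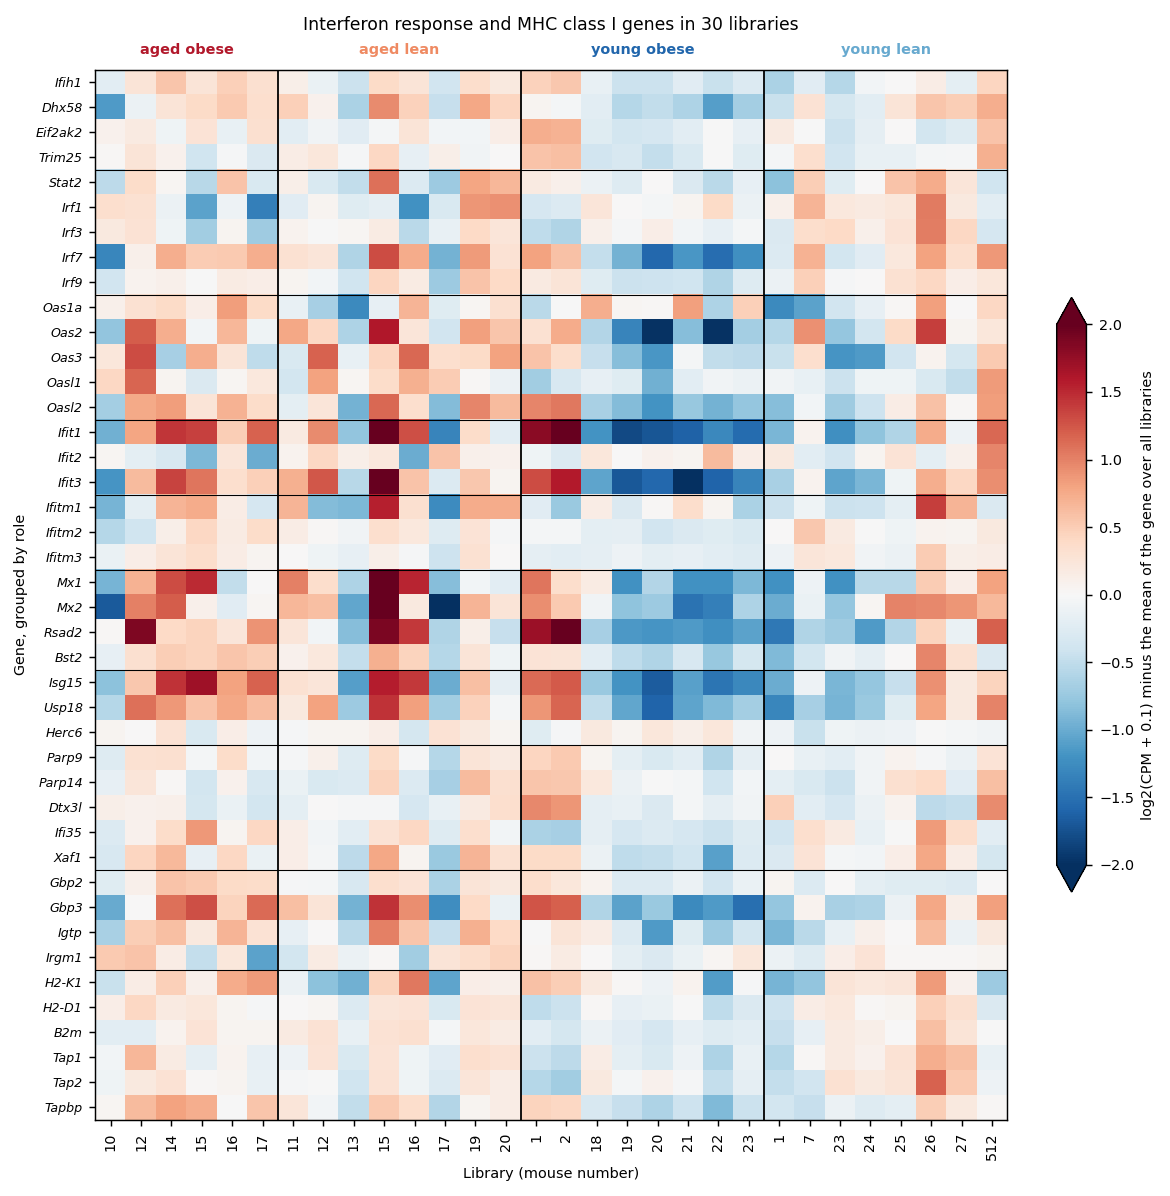
Each column is a library, named by its mouse number within its group, and each row a gene, with lines between roles; colour gives log2 CPM minus the mean of the gene over all 30 libraries, with the scale ending at the limits of the colour bar. Isg15, Ifit1, Ifit3, Gbp3, Usp18 and Irf7 turn red or blue together in single libraries of each group, and the 6 young obese libraries other than 1 and 2 are blue for them.

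**Figure D2:**
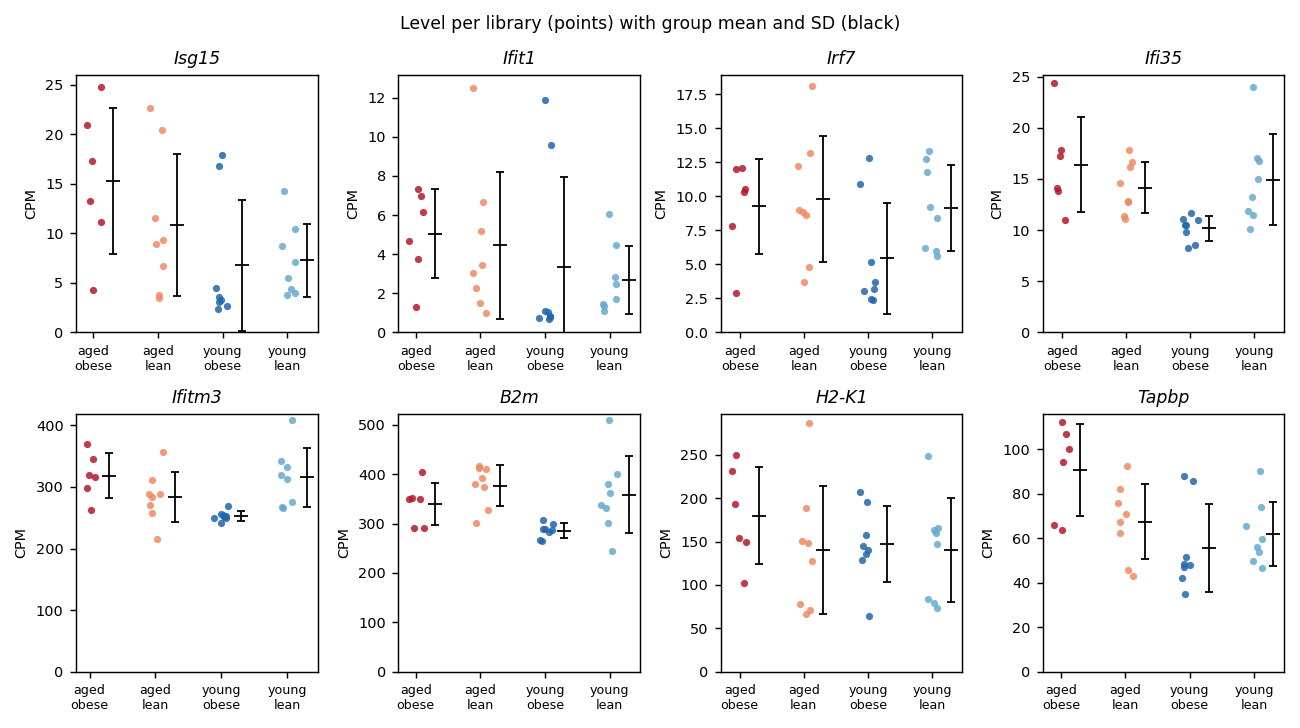
Points are the CPM of 8 genes in each library, from aged obese on the left to young lean on the right, with the group mean and SD in black on linear axes from 0. For Isg15, Ifit1, Irf7 and Tapbp young obese 1 and 2 stand above the other young obese points, whereas for Ifitm3 and B2m the young obese points lie close together.

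Many of the genes moved together from mouse to mouse. With the group means subtracted, 19 of the other 41 genes correlated with Isg15 at r of at least 0.7 over the 30 libraries (46.3%), against 5.44% of all tested genes. Each of the 19 had a permutation p of at most 0.00011 over 41 relations (adjusted over those 41, at most 0.000225), and the smallest p the permutations can give is 1e-05. The closest was Gbp3, a guanylate-binding GTPase (Pearson's r 0.96, Spearman's rho 0.96). Ifit1 followed (r 0.95, rho 0.96), then Irf7, the factor that amplifies interferon transcription (r 0.95, rho 0.95), Ifit3 (r 0.91, rho 0.89) and Usp18, the protease that removes Isg15 from proteins (r 0.91, rho 0.90). Young obese 2 and 1 were the libraries farthest from the median. Without them r was 0.94 for Gbp3, 0.93 for Ifit1, 0.92 for Irf7 and 0.85 for Ifit3 and Usp18, and 18 genes (43.9%) had r of at least 0.7, against 4.36% of all genes.

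The co-variation ran across roles. It took in all 4 of Mx1, Mx2, Rsad2 and Bst2, the sensors Ifih1 (r 0.86) and Dhx58 (0.84), and, among the MHC class I genes, only Tapbp (0.88). H2-K1 had r of 0.63, B2m 0.50, H2-D1 0.20, Tap1 0.16 and Tap2 0.11. Ifi35, at 0.42 over all libraries, had 0.77 without young obese 1 and 2, whereas Tapbp was still the only MHC class I gene past 0.7. Within aged lean libraries 5 of the 6 MHC class I genes had r of at least 0.7, among them B2m (0.89) and H2-K1 (0.86), and within young obese libraries Tap2 (-0.71) and H2-D1 (-0.48) were negative. Ifit2, Herc6, Irf3, Irf1, Irgm1 and Oasl1 had r below 0, from -0.40 (Ifit2) to -0.05 (Oasl1). Ifit2 thus departed from its neighbours Ifit1 and Ifit3. Within a group, r reached 0.7 for 20 of 41 genes (48.8%) in aged obese and 26 (63.4%) in aged lean libraries. It did so for 27 (65.9%) in young obese and 19 (46.3%) in young lean libraries. The shares over all genes were 21.7%, 15%, 27.4% and 4.30% in the same order. The young obese r runs between libraries 1 and 2 and the other 6. Of the 19 genes above the threshold, 13 had a promoter listed and 8 of these held the paired GAAA motif, as did 8 of the 20 listed promoters among the other 22 genes. Outside the 42 genes, the complement gene C2 and the interferon-induced chaperone Rtp4 were closest to Isg15 (r 0.94 each). They were followed by Fam234a and Matn2 (0.93 each).

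**Figure D3:**
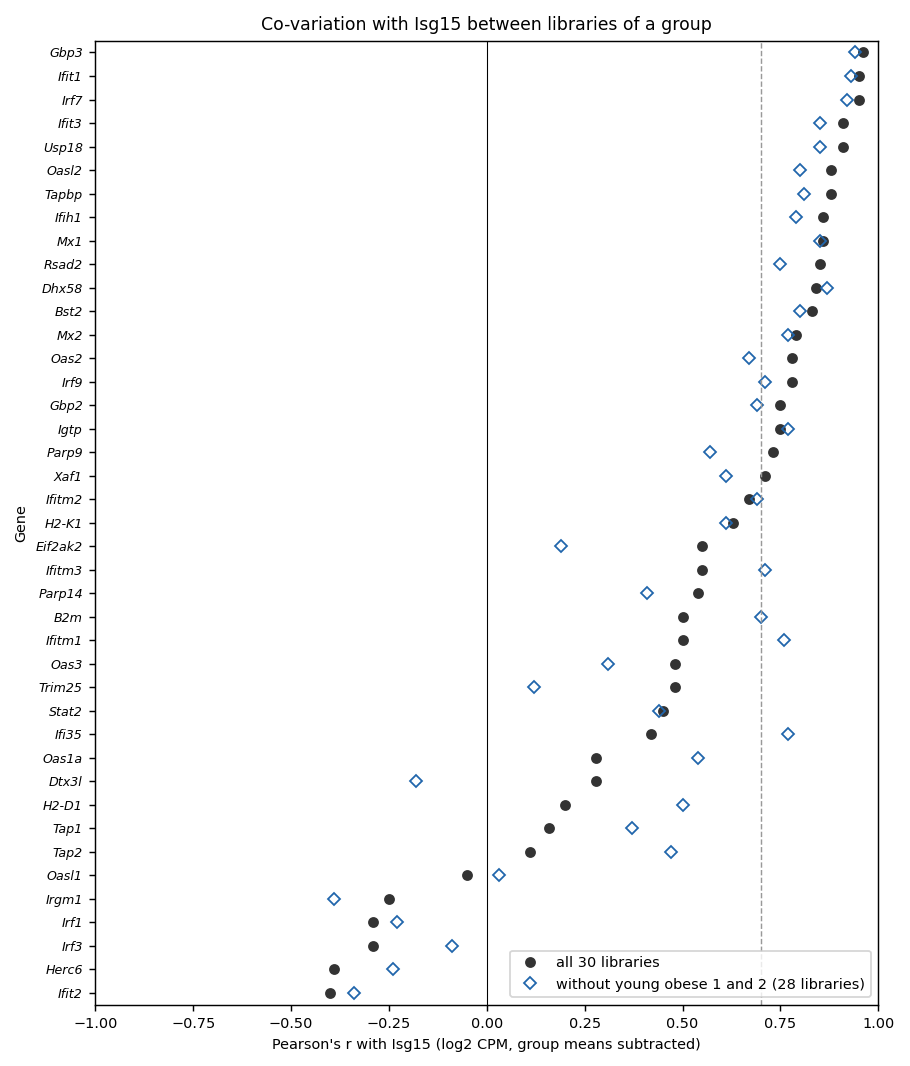
Pearson's r of each gene with Isg15 on log2 CPM after group means were subtracted, over 30 libraries (filled) and over those left without young obese 1 and 2 (open); the dashed line marks 0.7. Gbp3, Ifit1 and Irf7 have r of at least 0.92 either way, and Ifit2 and Herc6 lie below 0 either way.

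The same libraries also differed in transcripts of dividing cells. A list of 20 genes of DNA replication and mitosis, among them Mki67, Top2a and Cdk1, was chosen after the values had been seen. Their summed level ranged from 362 to 2100 CPM in aged obese, from 327 to 1700 in aged lean, from 347 to 1950 in young obese and from 566 to 1180 CPM in young lean libraries. Young obese 1 and 2 had the lowest sums of their group, 363 and 347 CPM. After group means were subtracted, Isg15 was lower where the cycling genes were higher (r -0.88, rho -0.88, permutation p = 1e-05 for both, n = 30). Without the 2 libraries farthest from the median, young obese 2 and aged obese 10, r was -0.84, and without young obese 1 and 2 it was -0.82. Within aged lean libraries r was -0.92 (exact permutation p = 0.00298, n = 8; rho -0.93, 0.00223) and without the 2 farthest -0.85. Within young lean libraries it was -0.87 (exact permutation p = 0.00531, n = 8; rho -0.79, 0.0279) and without the 2 farthest -0.69. Within aged obese libraries it was -0.83 (exact permutation p = 0.0306, n = 6; rho -0.83, exact permutation p = 0.0583) and rested on 2 libraries, since it was -0.28 without them. The young obese libraries fell into 2 sets, so their r was not read. Of the 42 genes, 22 had r of -0.5 or below with the cycling genes (52.4%), against 21.3% of all tested genes. Only Ifit2 had r of 0.5 or above (2.38%), against 22.2% of all tested genes. The part of cell division in the values of single libraries was not tested.

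**Figure D4:**
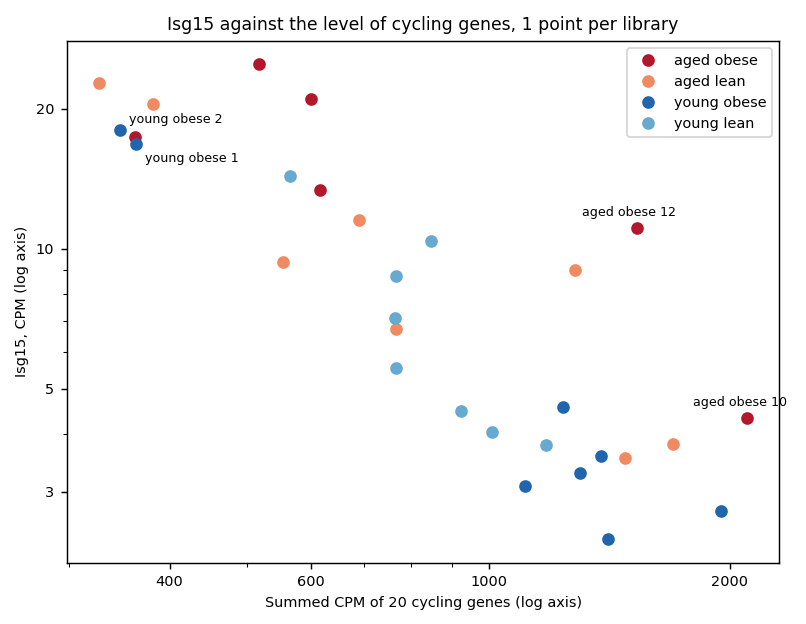
Isg15 against the summed CPM of 20 cycling genes, 1 point per library and both axes logarithmic. Points run from high Isg15 at the lowest sums of cycling genes to low Isg15 at the sum of 2100 CPM in aged obese 10. The lowest sums were 327 CPM in aged lean 15, 347 CPM in young obese 2, 362 CPM in aged obese 17 and 363 CPM in young obese 1.

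With obesity in young mice 3 of the 42 genes fell and 0 rose by the edgeR test (adjusted p below 0.05), where 5.37% of all tested genes were lower and 3.46% higher. The median log2 fold change of the 42 was -0.20, against -0.02 for all genes, and 11 were positive, against 47.6% of all genes. The median was -0.33 and -0.31 without young obese 1 and 2 singly, -0.11 to -0.10 without any 1 of young obese 19 to 23, -0.08 without young lean 26 and -0.06 without young lean YL512. Without adjustment 12 were lower at p below 0.05 and 0 higher, against 16.1% and 12.2% of all genes. By role, the median was -0.40 for the 5 transcription factors, -0.34 for the 3 Ifitm genes and -0.33 for the 6 MHC class I genes. It was -0.18 for the 5 Oas genes, -0.11 for Isg15, Usp18 and Herc6, and -0.04 for the 3 Ifit genes. In bulk libraries fewer cells of a type and less RNA per cell cannot be told apart.

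Ifitm3 (ENSMUSG00000025492) fell to 242 to 269 CPM (median 252) in young obese libraries, against 266 to 409 CPM (median 317) in young lean libraries. All 8 young obese values lay below the young lean median, and the ranges met only at 266 to 269 CPM (log2 fold change -0.32 ± 0.09 SE, edgeR adjusted p = 0.0311). Aged obese libraries had 263 to 369 CPM (median 317) and aged lean libraries 215 to 357 CPM (median 285) of Ifitm3. Ifi35 (ENSMUSG00000010358), an interferon-induced leucine zipper protein, fell to 8.29 to 11.7 CPM (median 10.5) in young obese libraries, against 10.1 to 24 CPM (median 14.1) in young lean libraries (log2 fold change -0.55 ± 0.16, edgeR adjusted p = 0.0319). B2m (ENSMUSG00000060802) fell to 264 to 308 CPM (median 288), against 244 to 509 CPM (median 350) in young lean libraries (log2 fold change -0.33 ± 0.10, edgeR adjusted p = 0.0454). Again all 8 young obese values of both genes lay below the lean median. The young obese values of Ifitm3 and B2m were also closer together, with an SD of 7.63 and 15 CPM, against 47.8 and 77.8 CPM in young lean libraries.

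These 3 transcripts are short, at 678 to 1362 bases, and libraries differed in how levels depended on transcript length. The slope of log2 CPM per doubling of length was 0.0663 ± 0.0657 in young obese and -0.0501 ± 0.113 in young lean libraries (SD, n = 8 each), and the groups overlapped. Young obese 1 and 2 had slopes of 0.175 and 0.168 and the other 6 of 0.0152 to 0.0464, while young lean libraries reached 0.116. The slope was lowest, at -0.246, in young lean 26, the library with the highest Ifitm3, Ifi35, B2m and Tap2 of its group. Tap2 has a long transcript, of 3442 bases. Ifitm2, Isg15, Bst2 and Ifitm1 are short, at 655, 756, 792 and 882 bases, and did not pass. Their log2 fold changes were -0.34, -0.11, -0.28 and -0.34 in that order. With an offset for length and GC content, added after the data were seen, Ifitm3 was at -0.01, B2m at -0.02 and Ifi35 at -0.31 on the log2 scale, and 0 genes passed. The offset was fitted to these same libraries and takes length and GC content together. The part of transcript length in the 3 calls was not tested. The calls depended on single libraries. Ifi35 lost its call without each of young obese 1, 2 and 21 and young lean 7, 26 and 27 (edgeR adjusted p up to 0.0986), and Ifitm3 without each of young obese 1, 2, 20, 21 and 23 and young lean 7, 23, 26 and 27 (up to 0.0886). B2m kept its call only without young lean 1 and without young lean YL512 (otherwise up to 0.136). Each of the 3 calls also ended when young obese 1 and 2 were both left out, with log2 fold changes of -0.32, -0.31 and -0.47 for Ifitm3, B2m and Ifi35.

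Of the other MHC class I genes, 0 passed in young mice. H2-D1 was at 84.9 to 123 CPM (median 104) in young obese libraries, against 90.7 to 168 CPM (median 130) in young lean libraries (log2 fold change -0.33, edgeR adjusted p = 0.0662). Tap1 and Tap2, the 2 chains of the peptide transporter, had medians of 19.9 and 26.8 CPM in young obese libraries, against 26.1 and 33.7 CPM in young lean libraries (log2 fold changes -0.45 and -0.46, edgeR adjusted p = 0.0606 and 0.0844). Tapbp had medians of 48.1 and 57.6 CPM in young obese and young lean libraries. H2-K1 had medians of 143 and 154 CPM but means of 147 and 140 CPM in young obese and young lean libraries, and it was the 1 of the 6 MHC class I genes with a positive fold change. Among genes that averaged 1 CPM or more, the condition for every largest value named here, the largest negative value was that of Irf7, at -0.75 ± 0.36 (edgeR adjusted p = 0.171), with 2.38 to 12.8 CPM (median 3.45) in young obese libraries, against 5.6 to 13.3 CPM (median 8.79) in young lean libraries. Young obese 1 and 2 had 12.8 and 10.9 CPM of Irf7 and the other 6 at most 5.17 CPM. Without this pair Irf7 fell by 1.46 (edgeR adjusted p = 0.0433) and Ifit3 by 1.73 (0.0485), and these were the 2 of the 42 genes that passed, where 0.708% of all genes were lower. For both genes the pair had the highest young obese values. Leaving it out lowers the young obese level, and these p-values depend on that choice. The largest positive value, 0.31 ± 0.61 for Ifit1 (edgeR adjusted p = 0.778), rested on the same pair and was -1.62 without it.

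With age in obese mice 2 of the 42 genes rose and 0 fell, where 1.87% of all tested genes were higher and 1.2% lower. The median log2 fold change of the 42 was 0.37, against 0.01 for all genes, and 36 were positive, against 51.8% of all genes. Without adjustment 14 were higher at p below 0.05 and 0 lower, against 10.5% and 8.44% of all genes. By role, the median was 0.83 for Isg15, Usp18 and Herc6, 0.73 for the Oas genes, 0.66 for Mx1, Mx2, Rsad2 and Bst2, and 0.60 for the Ifit genes. It was 0.47 for the guanylate-binding and immunity-related GTPases, 0.33 for MHC class I and 0.12 for the transcription factors. This comparison shares the young obese libraries with the comparison of obesity in young mice.

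Ifi35 rose to 11 to 24.4 CPM (median 15.7) in aged obese libraries, against 8.29 to 11.7 CPM (median 10.5) in young obese libraries, and all 6 aged obese values lay above the young obese median (log2 fold change 0.69 ± 0.17, edgeR adjusted p = 0.0273). In the same gene the lean groups lay close, at 11.1 to 17.8 CPM (median 13.7) in aged lean and 10.1 to 24 CPM (median 14.1) in young lean libraries. Tapbp (ENSMUSG00000024308) rose in aged obese mice 10, 12, 14, 15, 16 and 17 to 66.0, 100, 112, 107, 63.7 and 94.3 CPM, against 34.9 to 87.7 CPM (median 48.1) in young obese libraries (log2 fold change 0.70 ± 0.20, edgeR adjusted p = 0.0498). The high young obese values of Tapbp, 87.7 and 85.6 CPM, were those of libraries 1 and 2. The call of Ifi35 ended without aged obese 15 (0.54, edgeR adjusted p = 0.119) and without aged obese 17 (0.66, 0.0582). Of single libraries left out, Tapbp kept its call only without young obese 1, young obese 2, aged obese 10 or aged obese 16. Otherwise it had an edgeR adjusted p of up to 0.146. Tapbp also lost its call with no filter, with only the 2 groups compared and with the offset for length and GC content. With that offset Ifi35 (0.63, edgeR adjusted p = 0.0163) and H2-D1 (0.38, 0.0309) passed. Ifitm3 (0.33, edgeR adjusted p = 0.0532) and H2-D1 (0.41, 0.0635) stood just outside the threshold. H2-D1 was at 119 to 161 CPM in aged obese libraries, against 84.9 to 123 CPM in young obese libraries. B2m had medians of 350 and 288 CPM and H2-K1 of 173 and 143 CPM in aged obese and young obese libraries. The largest positive value, 1.18 ± 0.49 for Isg15, did not pass (edgeR adjusted p = 0.183), and the largest negative value was -0.41 ± 0.22 for Ifit2 (edgeR adjusted p = 0.324).

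The count of genes that passed depended on the libraries that stood apart. Without young obese 1 and 2, age in obese mice raised 13 of the 42 genes and lowered 0, where 3.1% of all genes were higher. They were Tapbp, Isg15, Ifit3, Ifit1, Irf7, Gbp3, Rsad2, Usp18, Oasl2, Oas2, Ifih1, Bst2 and Gbp2. Isg15 was then at a log2 fold change of 2.24 ± 0.44 (edgeR adjusted p = 0.00778), Ifit1 at 2.53 ± 0.52 (0.00929) and Tapbp at 1.0 ± 0.18 (0.00664), while Ifi35 no longer passed (0.61, 0.0512). Young obese 1 and 2 were both the highest of their group for 27 of the 42 genes and both the lowest for 5. Leaving them out lowers the young obese level of those 27 genes, and these p-values depend on that choice. Without aged obese 10 and 12, 9 genes were higher, where 9.46% of all genes were. Without aged obese 15 or without aged obese 17, 0 of the 42 passed. With the cycling genes as a covariate, added after the data were seen, Tapbp (0.61), Isg15 (1.05) and Ifi35 (0.56) passed with age in obese mice, where 2.26% of all genes were higher, and 9 genes were lower with obesity in young mice, where 11% of all genes were.

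**Figure D5:**
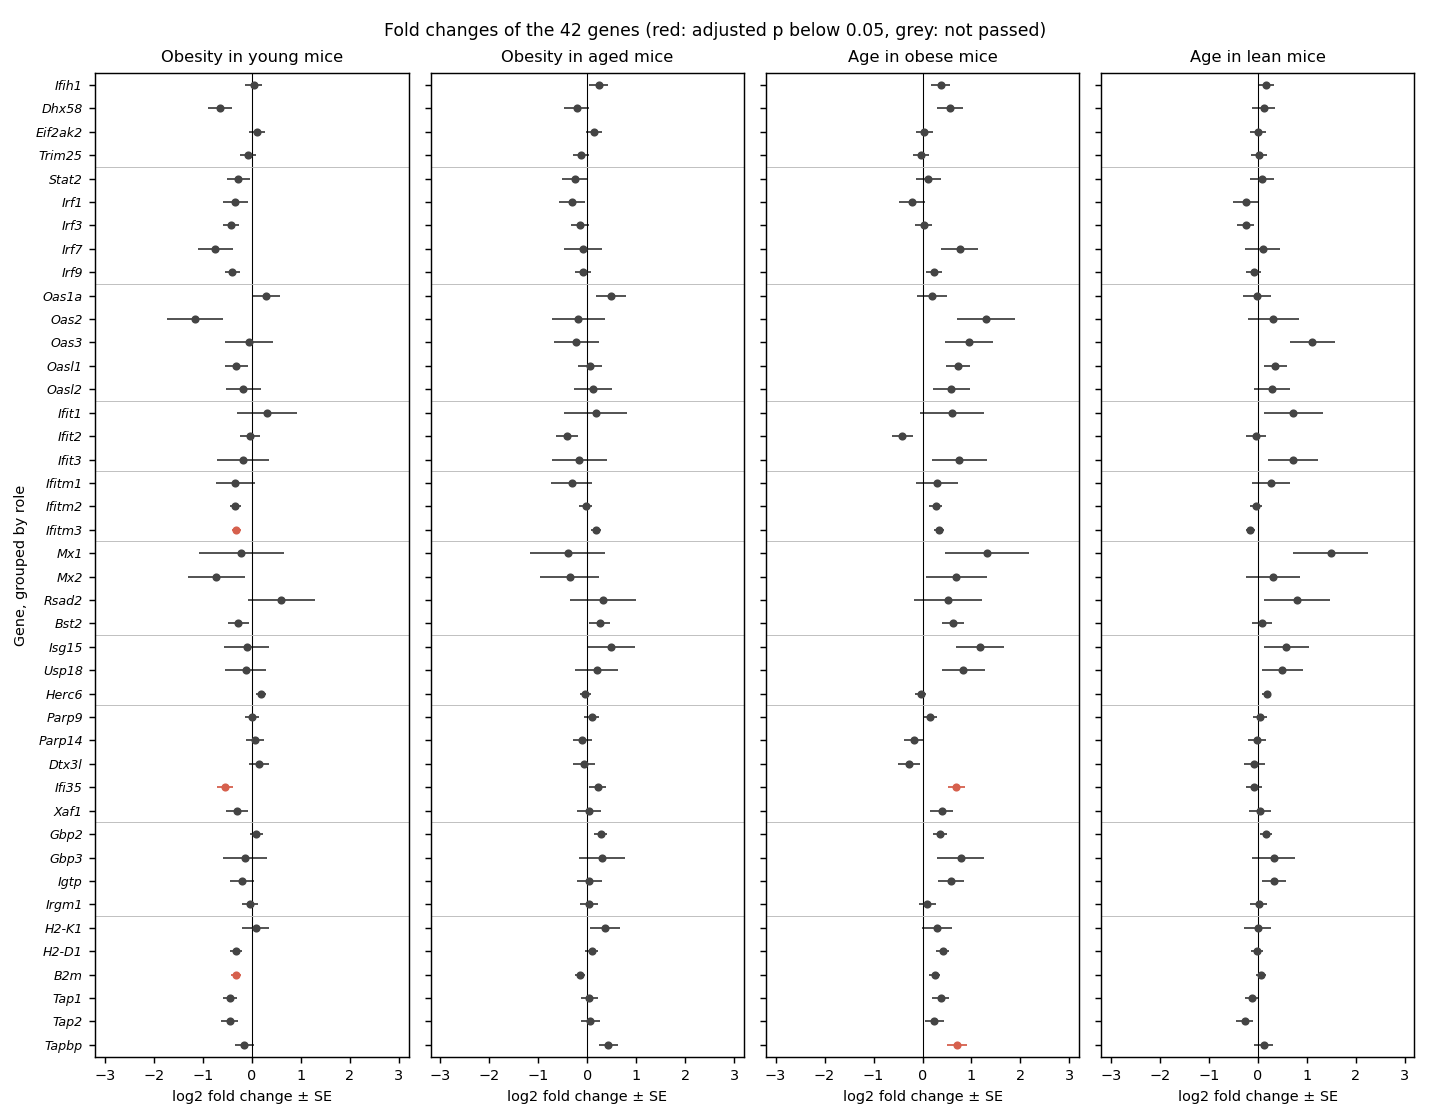
Points are log2 fold changes of the 42 genes with their SE in 4 comparisons, grouped by role; red marks an edgeR adjusted p below 0.05. Most points lie left of 0 for obesity in young mice and right of 0 for age in obese mice, and 0 genes pass for obesity in aged mice and for age in lean mice.

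In aged mice obesity changed 0 of the 42 genes by the edgeR test, where 0.166% of all genes were higher and 0.0554% lower. At an unadjusted p below 0.05, 1 was higher (Tapbp) and 0 lower, against 6.95% and 5.78% of all genes, and DESeq2 also called 0. The median log2 fold change was 0.04, and 23 were positive, against 51.2% of all genes. Isg15 had the largest positive value, 0.49 ± 0.49 (edgeR adjusted p = 0.748), and Ifit2 the largest negative one, -0.42 ± 0.22 (edgeR adjusted p = 0.444), with 2.66 to 6.41 CPM (median 4.51) in aged obese libraries, against 2.67 to 8.06 CPM (median 5.83) in aged lean libraries. In young obese and young lean libraries Ifit2 was at 4.44 to 8.46 CPM and 4.11 to 10.7 CPM. The MHC class I genes overlapped throughout. H2-K1 was at 102 to 250 CPM (median 173) in aged obese libraries, against 66.8 to 286 CPM (median 138) in aged lean libraries. B2m was at 291 to 404 CPM, against 302 to 417 CPM, and Tapbp at 63.7 to 112 CPM, against 42.9 to 92.6 CPM, in aged obese and aged lean libraries.

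Age in lean mice also changed 0 of the 42 genes, where 0% of all genes were called in either direction. At an unadjusted p below 0.05, 1 gene was higher, the oligoadenylate synthetase Oas3 (1.11 ± 0.46, edgeR adjusted p = 0.850), and 0 lower, against 2.6% and 2.76% of all genes, and DESeq2 also called 0. The median was 0.09, and 27 were positive, against 45.6% of all genes. Ifit1 had the largest positive value among genes of at least 1 CPM, 0.73 ± 0.61 (edgeR adjusted p = 0.877), and Tap2 the largest negative one, -0.27 ± 0.17 (edgeR adjusted p = 0.850). Tap2 was at 22 to 35.2 CPM (median 28.6) in aged lean libraries, against 20.8 to 65.8 CPM (median 33.7) in young lean libraries. H2-D1 had medians of 135 and 130 CPM and Tap1 of 25.4 and 26.1 CPM in aged lean and young lean libraries.

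Aged obese mice against young lean mice gave 1 higher gene of 42 and 0 lower, where 5.62% of all genes were higher and 4.65% lower. The median of the 42 was 0.14, and 27 were positive, against 48.8% of all genes. Gbp2 (ENSMUSG00000028270), a guanylate-binding GTPase that interferon gamma induces, rose in aged obese mice 10, 12, 14, 15, 16 and 17 to 11.3, 14.5, 19.9, 19.3, 17.5 and 17.3 CPM, against 11.1 to 13.9 CPM (median 11.6) in young lean libraries (log2 fold change 0.45 ± 0.14, edgeR adjusted p = 0.0420). Aged obese 10 lay inside the young lean range and the other 5 above it. Gbp2 was at 8.61 to 16.9 CPM in aged lean and 10.3 to 17.1 CPM in young obese libraries. Isg15 had the largest positive value, 1.07 ± 0.49 (edgeR adjusted p = 0.151), and Irf1, an activator of interferon-induced genes and MHC class I, the largest negative one, -0.55 ± 0.28 (edgeR adjusted p = 0.186). Irf1 was at 4.24 to 14.1 CPM (median 10.3) in aged obese libraries, against 9.56 to 23 CPM (median 12.7) in young lean libraries. The call of Gbp2 ended without each of young lean 7, 24, 25, 26 and 27 and each of aged obese 14, 15, 16 and 17, with log2 fold changes of 0.39 to 0.56 over all single libraries left out.

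The obesity effect in aged mice minus that in young mice passed for 0 of the 42 genes. It passed higher for 0.00693% of all genes and lower for 0%. At an unadjusted p below 0.05, 5 were positive and 0 negative, against 5.06% and 2.94% of all genes, and DESeq2 also called 0. The median was 0.26, against 0.02 for all genes, and 33 were above 0, against 53.5%. The median of the 42 was 0.14 without young lean 26, 0.16 without young lean YL512 and 0.17 without aged lean 13, and it was -0.26 in 12 libraries that share mouse numbers. Ifi35 had the largest positive value, 0.76 ± 0.23 (edgeR adjusted p = 0.406), followed among the 5 by Tapbp (0.58), Ifitm3 and Tap1 (0.49 each) and H2-D1 (0.42). Ifit2 had the largest negative value, -0.38 ± 0.30 (edgeR adjusted p = 0.740). A different effect of obesity at the 2 ages was therefore not shown for any of these genes.

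Other genes of the pathway were listed by role with earlier results of these data known. Of 33 tested other interferon-induced genes, obesity in young mice lowered 2 and raised 0 (median -0.15), beside 5.37% and 3.46% of all genes, so the lowered count was near the background. Age in obese mice raised 3 and lowered 1 (median 0.40), beside 1.87% and 1.2% of all genes. Oas1c, a relative of Oas1a, fell to 1.16 to 1.69 CPM in young obese libraries, against 1.83 to 3.66 CPM in young lean libraries, with no overlap (log2 fold change -0.85 ± 0.18, edgeR adjusted p = 0.0131). Oas1c kept its call with each single library left out, without young obese 1 and 2, and with the offset. Nmi, a partner of Ifi35 in a cytoplasmic complex, fell with obesity in young mice (log2 fold change -0.47, edgeR adjusted p = 0.0442) and rose with age in obese mice (0.67, 0.0226). It had medians of 3.38, 2.54, 2.08 and 2.96 CPM in aged obese, aged lean, young obese and young lean libraries. The fall of Nmi ended with 14 of the 16 libraries left out singly and its rise without aged obese 15. With age in obese mice Ube2l6, the conjugating enzyme for Isg15, rose by 0.83 (edgeR adjusted p = 0.0409) and Ifi205, a member of the interferon-inducible HIN-200 family, by 3.10 (0.0223). Ifi205 ranged from 1.89 to 31.2 CPM in aged obese libraries, against 0.619 to 1.94 CPM in young obese libraries, and its call ended without aged obese 15 (edgeR adjusted p = 0.108) and without aged obese 17 (0.0596). Nampt, an enzyme of NAD synthesis, fell by 0.55 (edgeR adjusted p = 0.0259), with no call without young obese 19 and without aged obese 15. Ube2l6 had no call without any 1 of the young obese libraries 18 to 23 or of aged obese 14, 15 and 17 (edgeR adjusted p up to 0.167).

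Of 21 tested genes of peptide supply and loading, obesity in young mice lowered 3 and raised 1 (median -0.22), beside 5.37% and 3.46% of all genes. Psmb10, an immunoproteasome subunit, fell to 13 to 17.2 CPM in young obese libraries, against 16.6 to 38.0 CPM in young lean libraries (log2 fold change -0.54, edgeR adjusted p = 0.0151). Psme2, a subunit of the proteasome activator, fell by 0.42 (edgeR adjusted p = 0.0345) and Cd1d1, a class I-like molecule that presents lipids, by 0.59 (0.0198). The chaperone Canx, calnexin, rose by 0.27 (edgeR adjusted p = 0.0236). With the offset for length and GC content, these 4 calls ended as well. Psmb10 kept its call with each single library left out, Cd1d1 lost it without young lean 26 and Canx without young lean 26 and 27, each singly. Psme2 lost it without each of young obese 1, 2, 20, 21 and 22 and young lean 7, 23, 26 and 27. With age in obese mice Psmb10 (0.48, edgeR adjusted p = 0.0432) and Cd1d1 (0.56, 0.0419) were the 2 of 21 that rose, and 0 fell (median 0.26), beside 1.87% and 1.2% of all genes. Their medians were 21 and 8.29 CPM in aged obese libraries, against 15.7 and 6.25 CPM in young obese libraries. Psmb10 kept this call only without young obese 22, aged obese 16 or aged obese 17. Cd1d1 kept it only without young obese 18, young obese 22 or aged obese 10, 12, 14 or 16. Aged obese against young lean mice raised 1 of the 21, near the 5.62% of all genes, the peptide-trimming Erap1 (0.39, edgeR adjusted p = 0.0334), which had no call without each of young lean 26 and aged obese 10, 12 and 15.

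Of 9 tested receptors and kinases, 0 passed in each of the 6 comparisons by the edgeR test. At an unadjusted p below 0.05 2 were higher with obesity in young mice (12.2% of all genes), 1 was higher with age in obese mice (10.5%) and 1 in aged obese against young lean mice (13.5%). At that p 0 were lower in these comparisons, and 0 passed in the other 3. Ifnar1 was at 76.1 ± 16 CPM in aged obese, 70.7 ± 9.94 in aged lean, 75.1 ± 13.5 in young obese and 67.5 ± 10.5 CPM in young lean libraries. Of 13 nucleic acid sensing genes, Tbk1, the kinase that activates Irf3, rose with age in obese mice (0.30, edgeR adjusted p = 0.0372) and in aged obese against young lean mice (0.26, 0.0318). Over all genes 1.87% and 5.62% were higher, in that order. Of 10 negative regulators, the phosphatase Ptpn1 rose in aged obese against young lean mice (0.94, edgeR adjusted p = 0.0109), beside the same 5.62%. It had an adjusted p of 0.0527 without aged obese 15. Tbk1 kept its rise with age in obese mice only without young obese 20, young obese 22, aged obese 10 or aged obese 16, and lost the other without each of young lean 23 and aged obese 10, 12, 15 and 17. In aged obese against young lean mice 2 of the 33 tested other interferon-induced genes also rose, near the 5.62% of all genes. They were Parp12 (0.27, edgeR adjusted p = 0.0374) and Ifi205 (2.83, 0.0149). Ifi205 had no call without aged obese 15, and Parp12 none without each of young lean 23, 24, 26 and 27 and aged obese 12, 14 and 15. Of 4 tested MHC class II genes 1, H2-Eb1, was lower in the same comparison, beside 4.65% of all genes. H2-Eb1 was at 0.339 to 1.24 CPM in aged obese libraries, against 1.31 to 2.01 CPM in young lean libraries (log2 fold change -0.81, edgeR adjusted p = 0.0154).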

How the data were processed

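The deposited table holds raw read counts in 30 libraries with a row per Ensembl gene, whole numbers with no normalization. STAR, HTSeq 0.7.0 and DESeq2 1.12.4 appear in the submitters' processing notes, while the genome build, the annotation and the strand setting are not given in the sources used here. The authors' table has 5 lines that name no gene, which were left out. Reads in no gene were 3.94% to 8.75% and ambiguous reads 2.69% to 3.41% of each library. Symbols came from a mouse gene name table (36639 identifiers matched and 1922 did not).

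Groups and mouse numbers came from the sample titles. Counts were filtered by group with filterByExpr, scaled with TMM and fitted in edgeR 4.0.16 (R 4.3.3) with a mean per group over all 30 libraries. The quasi-likelihood test was adjusted over 14438 genes by Benjamini-Hochberg, and an adjusted p below 0.05 was called. Fold changes have their SE, and levels are CPM with SD. Transcript length is the longest transcript in GENCODE M21. Correlations used log2 CPM (prior count 2) with group means subtracted and 100000 permutations of libraries within groups, or exact permutations within a group, all 2-sided. The test was first checked on simulated counts for obesity in young mice. The simulated libraries were independent, so the check does not cover libraries that stand apart together. Named with values were genes called in a comparison, the largest positive and negative value per comparison among genes of at least 1 CPM, the most abundant gene per role, the 6 MHC class I genes, the interferon genes and called pathway genes; others named were chosen after their values were seen. A further gene of the rule is not reported here. The genes, lists and most alternatives were chosen with earlier results of these data known. Alternatives were other scaling (RLE), DESeq2 1.42.0, no filter, only the 2 groups compared, quality weights in limma 3.58.1, libraries left out, a block on mouse number, and, added later, an offset for length and GC content, the block's libraries unpaired and a cycling covariate.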

Additional observations from a re-analysis of the deposited data

Results flagged for a closer look

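Each of the 42 genes was examined in each of the 4 groups, 168 sets of values in all, for a library that stood apart. In 19 of them the highest or lowest library's gap to its nearest neighbour, divided by the range of the group, passed Dixon's critical value. Chance flags about 1 in 20 sets, the genes share libraries, and so the flags are not independent. Young lean 26 stood apart for Irf3 at 74.2 CPM (nearest 48.6), Ifitm1 at 1.78 CPM (nearest 1.06), Xaf1 at 15.4 CPM (nearest 10.8), Tap2 at 65.8 CPM (nearest 41.4). Aged obese 10 stood apart for Irf9 at 15.9 CPM (nearest 20.6). Aged obese 16 stood apart for Oas1a at 2.56 CPM (nearest 1.85). Aged lean 15 stood apart for Oas2 at 1.09 CPM (nearest 0.594), Ifit3 at 11 CPM (nearest 5.96), Mx1 at 1.22 CPM (nearest 0.568), Mx2 at 2.36 CPM (nearest 0.743). Aged obese 12 stood apart for Oasl1 at 2.37 CPM (nearest 1.37), Rsad2 at 1.41 CPM (nearest 0.672), Tap1 at 37.6 CPM (nearest 26.5). Young lean YL512 stood apart for Oasl1 at 1.9 CPM (nearest 0.954), Ifit2 at 10.7 CPM (nearest 6.59). Aged lean 16 stood apart for Ifit2 at 2.67 CPM (nearest 5.72). Young obese 22 stood apart for Ifit2 at 8.46 CPM (nearest 6.33). Young lean 7 stood apart for Ifitm2 at 364 CPM (nearest 288), Herc6 at 3.45 CPM (nearest 4.35). These libraries were kept in the tests of the comparisons. Why they stood apart was not tested.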

How the results depend on the processing

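Of the 42 genes, 3 passed for obesity in young mice by the edgeR test. Shares in parentheses are over all genes. The number was 0 with no filter on low counts, 18 with quality weights (2 higher and 16 lower, beside 13.9% and 15.7% of all genes), 6 lower without aged obese 10 and 12 (7.59%), 0 with the offset for length and GC content and 9 lower with the cycling covariate (11%). For age in obese mice 2 passed. It was 1 higher with no filter (0.663%), 4 with DESeq2 (553 of 16060 genes) and 21 with quality weights (9.83%). It was 13 without young obese 1 and 2 (3.1%) and 9 without aged obese 10 and 12 (9.46%). For aged obese against young lean 1 passed. It was 0 with no filter and with only the 2 groups compared, 2 higher with DESeq2 (1237 of 16060 genes) and 6 with quality weights (2.96%). It was 2 without young obese 1 and 2 (6.8%) and 3 with the cycling covariate (8.89%). With single libraries left out the counts ran from 0 to 7, 0 to 4 and 0 to 1 in these comparisons. Obesity in aged mice, age in lean mice and the difference between ages stayed at 0 in every setting run. The median log2 fold change of the 42 ran from -0.33 to -0.06 with single libraries left out for obesity in young mice and from -0.37 to 0.37 over other settings, positive in the 12 libraries with shared mouse numbers. For the difference between ages it ran from 0.14 to 0.37 and from -0.26 to 0.42, negative in the same 12 libraries. For age in obese mice it ran from 0.31 to 0.46 and from 0.30 to 0.49. With single libraries left out it ran from -0.03 to 0.13 for obesity in aged mice, from -0.01 to 0.18 for age in lean mice and from 0.08 to 0.22 for aged obese against young lean. The cause of these shifts was not tested.

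Ifit1, at 0.31 with obesity in young mice, was at -1.04 with quality weights, -1.62 without young obese 1 and 2, -0.23 with the cycling covariate, -0.14 and -0.36 when young obese 1 or 2 was dropped, and between -0.36 and 0.60 over all single libraries left out. Mouse numbers shared between obese and lean groups gave a block over 12 libraries. The correlations of deviations were 0.08 and 0.21 in young and 0.20, 0.39, -0.10 and -0.52 in aged pairs. The labels give only the shared number, and these correlations cannot show whether such samples share anything else. With the block, obesity in young mice had 0 genes called and Irf7 was at 0.12. The same 12 libraries without the block gave 0 and 0.46. Over all genes, 1275 were called for obesity in young mice (0 to 4266 over the settings, 201 to 2197 with single libraries left out), 443 for age in obese mice (181 to 2870, and 43 to 1027), 1483 for aged obese against young lean (410 to 2801, and 642 to 2405), 32 for obesity in aged mice (0 to 188, and 9 to 435), 0 for age in lean mice (0 to 7, and 0 to 1) and 1 for the difference (0 to 91, and 1 to 6).

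The few libraries that stand apart, culture before sequencing and an unstated strand setting limit all of these values.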
